A study of Mus musculus with 27 samples.

Results

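The elastic fibre genes examined here are 10 genes that code for elastin, for the fibrillins that form its scaffold, and for the fibulins and microfibril-associated proteins that link elastin to the scaffold. The members were taken by symbol: Eln, Fbn1, Fbn2, Fbln1, Fbln2, Fbln5, Efemp1, Efemp2, Mfap4, and Mfap5. All 10 were present in both count tables, out of 22855 genes, and all 10 passed the filter on low counts in both tissues. RNA-Seq was performed on cardiac fibroblasts and on heart tissue of C57Bl/6 mice, from polyA RNA, at 5 ages, the youngest being postnatal day 1 (P1) and the others 4 and 14 weeks and 1 and 1.5 years. The fibroblasts were cells expressing PDGFRα (a receptor that marks most cardiac fibroblasts), sorted by flow cytometry after enzymatic digestion, with 3 samples at P1, 3 at 4 weeks, and 2 at each later age. Heart tissue held all cell types, with 3 samples at each age. The labels name no treatment, genetic change, or sex for any group. The question for each comparison was how the level of these genes differed between ages, and whether it differed in the same way in sorted fibroblasts and in the heart as a whole.

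Elastic fibres let arteries, valves, lung, and skin recoil. Cells secrete tropoelastin, the product of Eln, which gathers on bundles of fibrillin called microfibrils and is crosslinked by lysyl oxidases into an insoluble polymer that turns over very slowly. Fibulins bring tropoelastin, microfibrils, and the crosslinking enzymes together. In the heart, elastic fibres are found in the walls of the great vessels and coronary arteries, in the valves, and in the thin layers beneath the endocardium and epicardium, and most synthesis in other organs takes place in fetal and early postnatal life.

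The members Fbln1, Fbln5, and Efemp1 moved together in sorted fibroblasts, with Pearson's r between 0.98 and 0.99 for each pair on log2-transformed levels over 12 samples that share libraries and ages. This is a description without a test. Their promoter windows (RefSeq, GRCm38.p6), 250 bases before to 50 bases after a start site, are shown because of this shared pattern, the first listed for each gene, at chr15:85205699-85205998 on the plus strand for Fbln1, chr12:101819070-101819369 on the minus strand for Fbln5, and chr11:28852955-28853254 on the plus strand for Efemp1. Capitals mark each match on either strand to 1 of 5 motifs. The GC box, bound by factors of the Sp family, was searched for as GGGCGG. The letters for the TATA box of core promoters were TATAAA, and for the site of AP-1 factors the search used the letters TGACTCA. The E-box of basic helix-loop-helix factors was searched for as CACGTG, and the site of TEAD factors, which act in the Hippo pathway, was searched for as GGAATG.
Fbln1: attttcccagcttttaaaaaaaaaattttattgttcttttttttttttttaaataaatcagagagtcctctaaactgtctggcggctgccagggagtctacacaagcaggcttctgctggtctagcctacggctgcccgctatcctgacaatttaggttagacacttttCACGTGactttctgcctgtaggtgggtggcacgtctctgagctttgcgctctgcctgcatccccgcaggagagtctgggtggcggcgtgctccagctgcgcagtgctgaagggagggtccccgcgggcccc
Fbln5: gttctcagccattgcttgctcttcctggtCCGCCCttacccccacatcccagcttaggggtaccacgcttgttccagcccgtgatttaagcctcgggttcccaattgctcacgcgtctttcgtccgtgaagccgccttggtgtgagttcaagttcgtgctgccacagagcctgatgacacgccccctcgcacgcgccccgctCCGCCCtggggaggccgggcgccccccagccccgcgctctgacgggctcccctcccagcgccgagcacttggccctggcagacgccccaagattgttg
Efemp1: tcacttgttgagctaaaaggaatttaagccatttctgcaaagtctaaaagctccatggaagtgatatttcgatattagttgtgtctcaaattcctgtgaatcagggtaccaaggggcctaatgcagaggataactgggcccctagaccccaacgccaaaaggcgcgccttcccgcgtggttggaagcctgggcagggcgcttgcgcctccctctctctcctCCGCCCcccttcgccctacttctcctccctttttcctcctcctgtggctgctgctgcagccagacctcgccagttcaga
The Fbln1 window held 1 E-box, at position -81 from the start site. The Fbln5 window held 2 GC boxes, at -221 and -48, and the Efemp1 window held 1, at -29, and no matches overlapped. No motif was found in all 3 of these windows, the GC box being in those of Fbln5 and Efemp1. None of them held the TATA box, AP-1, or TEAD letters. Fbln1 and Fbln5 each have a second window in the table: that of Fbln1 also held 2 GC boxes, at -11 and 11, and that of Fbln5 held no match. Over all 32851 windows of this length, the GC box was found in 35.7%, the TATA box in 13.6%, the AP-1 site in 5.20%, the E-box in 7.15%, and the TEAD site in 14.7%.

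The total count ranged from 54615898 to 76758831 in the 12 fibroblast samples and from 46091271 to 67984404 in the 15 heart samples. Levels are given as CPM (library-scaled counts) after TMM scaling within a tissue. Summed CPM of 7 fibroblast markers was between 19169 and 39396 in sorted cells and between 720.2 and 1444 in hearts, with none of the 7 at 0 in any sorted sample. Summed CPM of 5 cardiomyocyte markers was between 616 and 681 in the sorted cells at P1 and between 12.8 and 151 at later ages, whereas hearts held between 31410 and 71193. Xist, transcribed in female cells, was at most 0.315 CPM in sorted cells at 14 weeks and 1 year and at least 424 CPM at 1.5 years, and Ddx3y of the Y chromosome was at most 0.0813 CPM at 1.5 years and at least 71.7 CPM at 14 weeks and 1 year. Hearts split in the same way, so that age and sex cannot be told apart between 1.5 years and either 14 weeks or 1 year. At P1 and 4 weeks, both genes were detected in each sample of both tissues. The balance of the sexes therefore also differed between 14 and 4 weeks and between 1.5 years and P1: Xist was called lower at 14 than at 4 weeks in both tissues, and Ddx3y lower at 1.5 years than at P1 in both. Xist was also called higher in fibroblasts at 4 weeks than at P1 (log2 fold change 1.17, edgeR adjusted p = 0.0057). The part of sex in the differences between these ages was not tested.

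The ages were compared with edgeR's quasi-likelihood F test over all genes of a tissue, and a gene was called at a Benjamini-Hochberg adjusted p under 0.05, written here as edgeR adjusted p. In fibroblasts, all 10 elastic fibre genes differed between 4 weeks and P1, 8 higher and 2 lower, where 15.5% of the 18759 genes tested were called (9.28% higher and 6.20% lower). From 4 weeks to 14 weeks, 3 fell and 1 rose (3.87% of all genes called, 2.08% lower and 1.79% higher), and from 14 weeks to 1 year, 3 rose and none fell (1.78% called, 1.31% higher and 0.474% lower). Between 14 weeks and 1.5 years none of the 10 was called by edgeR (2.72% of all genes called, 1.91% higher and 0.816% lower), although 6 had an unadjusted p under 0.05 and DESeq2 called 2. At 1.5 years, 4 members were higher than at P1 and 3 were lower, with 16.3% of all genes called (9.86% higher and 6.46% lower). In hearts, fewer members were called between 4 weeks and P1, with 2 higher and 2 lower against a background of 18.2% of 17995 genes (12.1% higher and 6.10% lower). From 4 to 14 weeks, 4 fell and 1 rose in hearts (1.61% called, 0.850% lower and 0.756% higher). None was called by edgeR between 14 weeks and 1 year (0.972% called, 0.389% higher and 0.583% lower), with 4 at an unadjusted p under 0.05 and 2 called by DESeq2. All percentages in this paragraph's comparisons count edgeR calls. The shares of all genes at an unadjusted p under 0.05, or called by DESeq2, are not given here, so those member counts have no background beside them. At 1.5 years, 4 members were higher in hearts than at 14 weeks and none lower (12.8% called, 4.91% higher and 7.86% lower). Relative to P1, 2 were higher and 4 lower (31.8% called, 15.6% higher and 16.3% lower). The median log2 fold change of the 10 members between 4 weeks and P1 was 0.98 in fibroblasts, beside 0.00 for all genes, and 0.14 in hearts, beside -0.09 for all genes. Comparisons that share an age share its samples. Other cells and RNA measures moved with the change in sorted fibroblasts between P1 and 4 weeks. Summed CPM of 8 endothelial markers was between 479 and 712 at P1 and 642 and 2128 at 4 weeks, with 1 of 8 called (Tek, higher), and 5 leukocyte markers summed to between 80.9 and 156 and then 196 and 351 CPM, with 2 of 5 called (Csf1r and Lyz2, higher). The sum of 3 pericyte markers was between 156 and 174 CPM and then 47.8 and 104 CPM (Kcnj8 and Abcc9 called lower). The share of counts from the mitochondrial genome was between 6.15% and 9.18% at P1 and 1.88% and 3.73% at 4 weeks. At 14 weeks the leukocyte sum of sorted cells was between 32.2 and 45.1 CPM, with Csf1r, Cd68, and Lyz2 called lower than at 4 weeks. The pericyte sum was between 214 and 253 CPM, with none of its genes called. In hearts, 1.5 years differed from 14 weeks in the same kinds of measure. There the 7 fibroblast markers summed to between 720.2 and 865.6 CPM at 14 weeks and 1043 and 1239.6 CPM at 1.5 years (Tcf21 and Lum called higher), and the 5 smooth muscle markers to between 213 and 280.2 and then 269 and 339.6 CPM (Acta2 and Tagln called higher). The mitochondrial share of hearts was between 27.7% and 34.5% at 14 weeks and 18.5% and 26.5% at 1.5 years. The part of these measures in the levels of the elastic fibre genes was not tested.

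**Figure D1:**
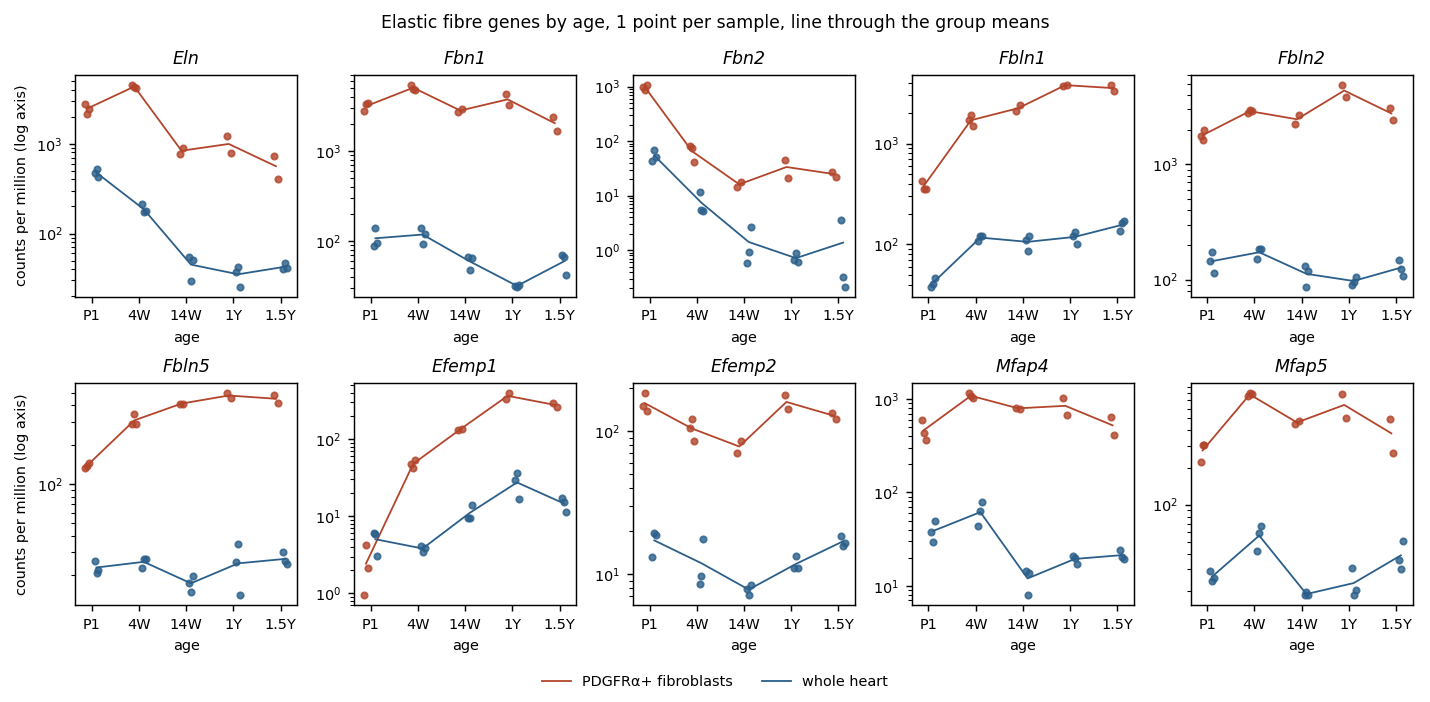
CPM (TMM-scaled within each tissue, log axis) of the 10 elastic fibre genes against age in PDGFRα+ fibroblasts and whole heart, with 1 point per sample and a line through the group means. Eln peaked at 4 weeks in fibroblasts and at P1 in hearts, Fbn2 was highest at P1 in both, and Efemp1 in fibroblasts climbed from at most 4.19 CPM at P1 to at least 335 CPM at 1 year.

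Elastin (Eln, chromosome 5) rose in fibroblasts and fell in hearts between P1 and 4 weeks, and fell in both from 4 to 14 weeks. In fibroblasts Eln was at 2774, 2127, and 2465 CPM at P1 and at 4547, 4305, and 4141 CPM at 4 weeks. It then stood at 774 and 896 CPM at 14 weeks, 1203 and 784 CPM at 1 year, and 722 and 399.9 CPM at 1.5 years. Every 4-week sample lay above every P1 sample, and all 6 later samples lay below both of these ages. Eln rose between P1 and 4 weeks by a log2 fold change of 0.82 (SE 0.21, edgeR adjusted p = 0.0187) and fell between 4 and 14 weeks by 2.38 on the log2 scale (SE 0.26, edgeR adjusted p = 0.00049). In hearts Eln was at 472, 529, and 424 CPM at P1, 212, 171, and 176 CPM at 4 weeks, and 54.4, 29.9, and 50.9 CPM at 14 weeks. The 1-year hearts held 36.9, 42.9, and 25.6 CPM and the 1.5-year hearts 39.9, 47.5, and 40.8 CPM, ranges that overlapped that of 14 weeks. The heart level was thus lower at 4 weeks than at P1, with a log2 fold change of -1.35 (SE 0.22, edgeR adjusted p = 0.00027), and lower again at 14 weeks, at -2.05 (SE 0.22, edgeR adjusted p = 0.00018). From P1 to 1.5 years the log2 fold change was -2.13 (SE 0.25, edgeR adjusted p = 7.6e-05) in fibroblasts and -3.47 (SE 0.23, edgeR adjusted p = 2.4e-08) in hearts. In heart tissue, fewer cells of a type and less RNA per cell cannot be told apart. Smooth muscle cells also make elastin, and the summed CPM of 5 smooth muscle markers in hearts was between 709.8 and 1085 at P1, 624 and 794 at 4 weeks, and 213 and 280.2 at 14 weeks; in sorted fibroblasts it was between 384 and 553 at P1 and 316 and 348 at 4 weeks, with Cnn1 at 0 in at least 1 sample of both ages. The 5 markers did not move as 1 between P1 and 4 weeks. In hearts Acta2, Tagln, and Cnn1 were called lower and Smtn higher. In sorted fibroblasts Acta2, Tagln, and Smtn were called lower and Myh11 higher. Smtn had the highest mean over the ages in sorted cells, at 242 CPM, with Acta2 next at 65.6 CPM. At P1, Smtn was called higher in sorted cells than in hearts, and Myh11, Acta2, and Cnn1 lower. The part of smooth muscle cells in the Eln levels was not tested. The rise in fibroblasts from P1 to 4 weeks rested on single libraries: without P1 replicate 2, P1 replicate 3, or 4-week replicate 1, the edgeR adjusted p was 0.0727, 0.0544, and 0.0606, with the log2 fold change between 0.72 and 0.82.

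The fibrillins form the microfibrils onto which elastin is laid, Fbn1 (chromosome 2) throughout life and Fbn2 (chromosome 18) chiefly before birth. In fibroblasts Fbn2 was at 985, 868, and 1087 CPM at P1, and at 81.2, 73.3, and 41.2 CPM at 4 weeks. It was at 14.7 and 17.5 CPM at 14 weeks, 45.6 and 21.3 CPM at 1 year, and 27.7 and 22.1 CPM at 1.5 years. The P1 samples stood far above all others, the lowest of them at 868 CPM and the highest later sample at 81.2 CPM. The log2 fold change of Fbn2 was -3.91 (SE 0.31, edgeR adjusted p = 3e-06) from P1 to 4 weeks and -2.02 (SE 0.33, edgeR adjusted p = 0.00593) from 4 to 14 weeks. In hearts, Fbn2 was at 43.9, 68.3, and 51.1 CPM at P1, 11.5, 5.4, and 5.21 CPM at 4 weeks, and 0.588, 0.937, and 2.71 CPM at 14 weeks. The 1-year hearts held 0.649, 0.886, and 0.602 CPM, and the 1.5-year hearts 3.59, 0.318, and 0.214 CPM, the lowest of these from 13 counts. The fall in hearts from P1 was -2.88 (SE 0.77, edgeR adjusted p = 0.0144) at 4 weeks and -5.32 (SE 0.87, edgeR adjusted p = 0.0002) at 1.5 years, and in fibroblasts it was -5.30 (SE 0.39, edgeR adjusted p = 1.5e-06) at 1.5 years. The value for 1.5-year hearts rested on 1 sample: without 1.5-year replicate 1 (3.59 CPM) it was -7.67. Without 1 library, 2 of these Fbn2 calls were lost: from 4 to 14 weeks in fibroblasts the edgeR adjusted p was 0.0855 without 14-week replicate 4 and 0.0593 without 14-week replicate 6, and from P1 to 4 weeks in hearts it was 0.0522 without 4-week replicate 2 and 0.0635 without 4-week replicate 3.

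Fbn1 varied far less. Its fibroblast samples read 2744, 3264, and 3359 CPM at P1, 5417, 4896, and 4715 CPM at 4 weeks, and 2671 and 2926 CPM at 14 weeks. They read 4246 and 3193 CPM at 1 year and 2394 and 1656 CPM at 1.5 years, so that only the 4-week samples lay above all others. Fbn1 rose from P1 to 4 weeks (log2 fold change 0.68, SE 0.16, edgeR adjusted p = 0.0117) and fell from 4 to 14 weeks (-0.84, SE 0.18, edgeR adjusted p = 0.0252), and was lower at 1.5 years than at P1 (-0.62, SE 0.18, edgeR adjusted p = 0.034). In hearts Fbn1 ranged from 88.7 to 140.3 CPM at P1 and from 93.5 to 141 CPM at 4 weeks, which overlapped. It ranged from 47.5 to 66.9 CPM at 14 weeks, 31.4 to 32.7 CPM at 1 year, and 42.4 to 70.5 CPM at 1.5 years. The heart fell from 4 to 14 weeks by 0.99 on the log2 scale (SE 0.22, edgeR adjusted p = 0.035) and was lower at 1.5 years than at P1 (-0.84, SE 0.22, edgeR adjusted p = 0.00843). The last value was lost with another setting. Across 12972 genes of the heart, Spearman's rho between transcript length and this fold change was -0.40, and with offsets for length and GC content together Fbn1, whose transcript has 11971 bases, stood at -0.08 (edgeR adjusted p = 0.748). It also moved to -0.56 (edgeR adjusted p = 0.0847) without P1 replicate 2. Other Fbn1 calls were lost without single libraries too. For 14 against 4 weeks, the edgeR adjusted p was 0.0828 and 0.0553 without the fibroblast 4-week replicates 1 and 2 and 0.255 and 0.158 without the 14-week replicates 4 and 6, and in hearts it was between 0.0879 and 0.191 without any 1 of the 6 samples except 4-week replicate 2. For 1.5 years against P1 in fibroblasts, it was 0.0746, 0.0897, and 0.301 without P1 replicates 2 and 3 and 1.5-year replicate 5, the last of which moved the log2 fold change to -0.39. On the opposite strand, exons of Gm9913 cover 20.1% of the exonic length of Fbn1, and the strand setting of the counting is not given in the sources used here.

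Expressed per kilobase of transcript, which allows levels of different genes to be compared, Fbn2 was at 34.3% ± 5.09 (SD, n = 3) of the Fbn1 level in P1 fibroblasts and at 1.40% ± 0.391 (SD, n = 3) at 4 weeks. In hearts it was at 55.1% ± 3.16 (SD, n = 3) at P1 and 6.59% ± 2.12 (SD, n = 3) at 4 weeks. In each tissue the 3 P1 samples lay above the 3 samples of 4 weeks (exact permutation test, 2-sided p = 0.1, the smallest that 3 against 3 samples allow). Elastin per kilobase was 2.48 ± 0.585 (SD, n = 3) times the Fbn1 level in P1 fibroblasts and 2.69 ± 0.0708 (SD, n = 3) times at 4 weeks, and it was 0.926 ± 0.0362 (SD, n = 2) times at 14 weeks. In hearts this ratio was 14.1 ± 2.41 (SD, n = 3) at P1, 4.96 ± 0.638 (SD, n = 3) at 4 weeks, and 2.31 ± 0.308 (SD, n = 3) at 14 weeks.

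**Figure D2:**
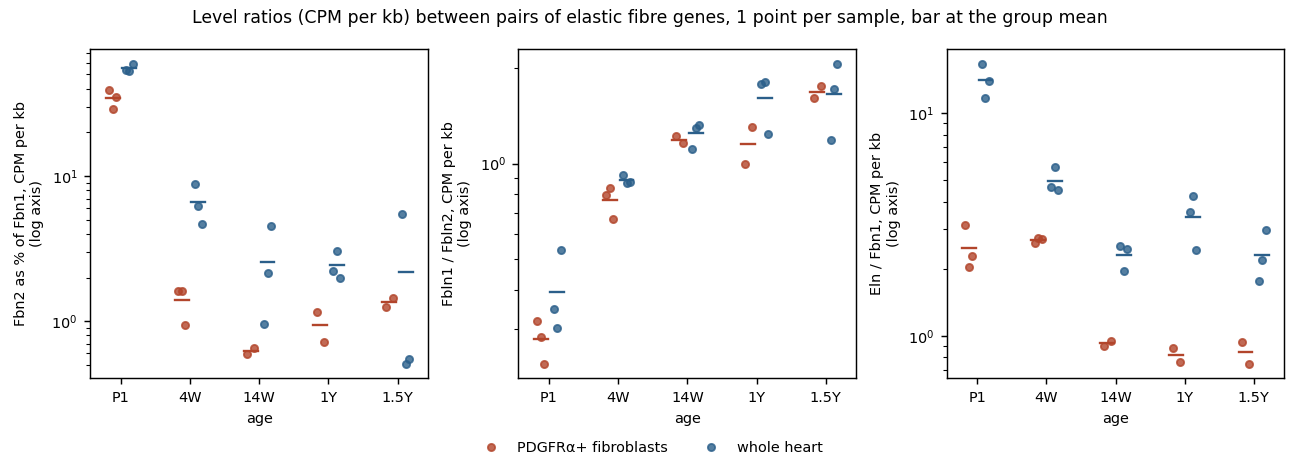
Ratios of levels per kilobase (log axes) of Fbn2 to Fbn1 in percent, Fbln1 to Fbln2, and Eln to Fbn1 against age, with 1 point per sample and a bar at the group mean, for PDGFRα+ fibroblasts and whole heart. Fbn2 was at least 28.8% of Fbn1 in each P1 sample and at most 8.86% in each older one, and Fbln1 lay above Fbln2 in all samples of 14 weeks and older except 1 fibroblast sample of 1 year (0.994).

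The fibulins are calcium-binding glycoproteins of the matrix. Fbln1, on chromosome 15, codes for fibulin-1, which binds elastin, fibronectin, and basement membranes. In fibroblasts it was at 429, 352, and 356 CPM at P1, 1711, 1912, and 1479 CPM at 4 weeks, and 2081 and 2392 CPM at 14 weeks. It was at 3747 and 3834 CPM at 1 year and 3809 and 3281 CPM at 1.5 years. The ranges of P1, 4 weeks, 14 weeks, and 1 year did not overlap, and those of the 2 oldest ages did. Fbln1 rose from P1 to 4 weeks by a log2 fold change of 2.17 (SE 0.14, edgeR adjusted p = 5.9e-07) and stood at 3.23 (SE 0.15, edgeR adjusted p = 3.5e-08) at 1.5 years relative to P1. In hearts the 3 P1 samples held 38.2, 40.4, and 46.7 CPM and the 12 older samples between 86.1 and 169.7 CPM, with log2 fold changes of 1.48 (SE 0.16, edgeR adjusted p = 6.3e-06) at 4 weeks and 1.90 (SE 0.17, edgeR adjusted p = 3.4e-07) at 1.5 years.

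Efemp1, on chromosome 11, codes for fibulin-3, which is abundant in fascia and in basement membranes of the eye. Its fibroblast samples held 0.944, 4.19, and 2.16 CPM at P1 (between 77 and 286 counts) and 48.2, 41.9, and 53.1 CPM at 4 weeks. They held 132 and 136 CPM at 14 weeks, 335 and 391 CPM at 1 year, and 294 and 261 CPM at 1.5 years. No 2 ages overlapped. The log2 fold change relative to P1 was 4.30 (SE 0.39, edgeR adjusted p = 9.3e-06) at 4 weeks and 6.84 (SE 0.44, edgeR adjusted p = 4.7e-07) at 1.5 years, the largest change of the 10 members in either tissue, and from 4 to 14 weeks it was 1.49 (SE 0.37, edgeR adjusted p = 0.0437). Without P1 replicate 2, which had the highest of the low P1 levels, the first of these values was 4.95 and the second 7.49. In hearts Efemp1 was at 6.1, 5.94, and 3.07 CPM at P1, 4.08, 3.46, and 3.91 CPM at 4 weeks, and 9.58, 9.57, and 14.1 CPM at 14 weeks. The 1-year hearts held 29.6, 36.2, and 16.5 CPM and the 1.5-year hearts 17.2, 15.1, and 11.4 CPM. P1 and 4 weeks overlapped in hearts, and Efemp1 rose there from 4 to 14 weeks (log2 fold change 1.54, SE 0.33, edgeR adjusted p = 0.0284), standing at 1.53 (SE 0.33, edgeR adjusted p = 0.00202) at 1.5 years relative to P1. The summed CPM of 5 epicardial markers in hearts was between 59.3 and 98.7 at P1 and 13.9 and 62.5 at later ages, and its part in the P1 level was not tested. The step from 4 to 14 weeks lost its call without any 1 library, with an edgeR adjusted p between 0.0661 and 0.224 over the 5 samples in fibroblasts and between 0.0589 and 0.159 over the 6 in hearts.

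Fbln5, on chromosome 12, codes for fibulin-5, which binds tropoelastin and integrins and is needed for elastic fibres to form. In fibroblasts it was at 132, 138, and 146 CPM at P1, 286, 344, and 290.1 CPM at 4 weeks, and between 412 and 494 CPM in the 6 older samples. It rose from P1 to 4 weeks (log2 fold change 1.15, SE 0.12, edgeR adjusted p = 2.4e-05) and stood at 1.70 (SE 0.13, edgeR adjusted p = 1.5e-06) at 1.5 years. All 15 hearts lay between 14.1 and 34.7 CPM, and none of the 5 comparisons of ages called Fbln5 there with edgeR, although 2 had an unadjusted p under 0.05. Fbln2, on chromosome 6, codes for fibulin-2, found with elastic fibres and in developing valves. It was at 1762, 1619, and 1995 CPM in P1 fibroblasts and 2819, 2984, and 2898 CPM at 4 weeks, and it reached 4930.4 and 3832 CPM at 1 year. Its log2 fold change was 0.69 (SE 0.14, edgeR adjusted p = 0.00534) at 4 weeks and 0.63 (SE 0.16, edgeR adjusted p = 0.0159) at 1.5 years relative to P1, the latter at 0.42 (edgeR adjusted p = 0.0895) with library size in place of TMM, and with an edgeR adjusted p of 0.0523 without P1 replicate 2 and 0.16 without 1.5-year replicate 4. Fbln2 was not called by edgeR between ages in hearts, which ranged from 86.9 to 183 CPM, and 1 of the 5 comparisons had an unadjusted p under 0.05. Per kilobase, Fbln1 was at 0.279 ± 0.0425 (SD, n = 3) times the level of Fbln2 in P1 fibroblasts, 0.767 ± 0.0885 (SD, n = 3) times at 4 weeks, 1.19 ± 0.0412 (SD, n = 2) times at 14 weeks, 1.15 ± 0.222 (SD, n = 2) times at 1 year, and 1.68 ± 0.109 (SD, n = 2) times at 1.5 years. In hearts the same ratio was 0.394 ± 0.122 (SD, n = 3) at P1, 0.887 ± 0.0309 (SD, n = 3) at 4 weeks, 1.25 ± 0.115 (SD, n = 3) at 14 weeks, 1.61 ± 0.321 (SD, n = 3) at 1 year, and 1.66 ± 0.437 (SD, n = 3) at 1.5 years.

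Efemp2, on chromosome 19, codes for fibulin-4, which brings lysyl oxidase to tropoelastin. Its course in fibroblasts ran opposite to that of the other fibulins at first, with 149, 183, and 138 CPM at P1 and 105, 121, and 85.6 CPM at 4 weeks. It was at 70.1 and 85.8 CPM at 14 weeks, 177 and 142 CPM at 1 year, and 135 and 121 CPM at 1.5 years. The fall from P1 to 4 weeks was 0.59 on the log2 scale (log2 fold change -0.59, SE 0.16, edgeR adjusted p = 0.0283), and without P1 replicate 2, 4-week replicate 1, or 4-week replicate 3 the edgeR adjusted p was 0.103, 0.0704, and 0.0907. In hearts Efemp2 was at 13.3, 19.5, and 18.8 CPM at P1 and 8.51, 9.76, and 17.5 CPM at 4 weeks. It was at 7.83, 7.11, and 8.45 CPM at 14 weeks and 18.6, 15.8, and 16.5 CPM at 1.5 years. The ranges of P1 and 1.5 years overlapped. From 14 weeks to 1.5 years the log2 fold change was 1.12 (SE 0.28, edgeR adjusted p = 0.0139). This call was lost without 14-week replicate 1 (edgeR adjusted p = 0.053) or replicate 2 (0.0594).

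Between 14 weeks and 1 year, Fbln1, Fbln2, and Efemp2 were the 3 members that rose in fibroblasts. Their log2 fold changes were 0.76 (SE 0.16, edgeR adjusted p = 0.0369) for Fbln1, 0.83 (SE 0.18, edgeR adjusted p = 0.0358) for Fbln2, and 1.03 (SE 0.20, edgeR adjusted p = 0.0244) for Efemp2. With 2 samples at each age, these calls were fragile. Leaving out any 1 sample took the edgeR adjusted p to between 0.161 and 0.41 for Fbln1 and between 0.0549 and 0.323 for Efemp2, and for Fbln2 to 0.404, 0.128, and 0.371 without 14-week replicates 4 and 6 and 1-year replicate 4. None of the 3 was called with library size in place of TMM or with offsets for transcript length and GC content. Marker sums in sorted cells also differed between 14 weeks and 1 year. The endothelial sum was between 1535 and 1817 CPM and then 515 and 717 CPM, and that of 3 pericyte markers between 214 and 253 and then 112 and 155 CPM. The fibroblast sum was between 22960 and 24319.5 and then 27793 and 32105 CPM. No gene of these marker lists was called, and their part in the 3 rises was not tested.

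Mfap4 and Mfap5 code for microfibril-associated proteins, of which the first binds elastin and integrins and the second, also called MAGP-2, binds fibrillins. Mfap4 was at 591, 431, and 367 CPM in P1 fibroblasts, 1149.8, 1066, and 1037 CPM at 4 weeks, and 803 and 788 CPM at 14 weeks. Mfap5 was at 219.8, 303, and 303 CPM at P1, 761, 798, and 789 CPM at 4 weeks, and 450.2 and 478 CPM at 14 weeks. Both were highest at 4 weeks in fibroblasts, and both spread widely at the oldest ages, Mfap4 from 411 to 1019 CPM and Mfap5 from 265 to 787 CPM over the 4 samples of 1 and 1.5 years. The log2 fold change from P1 to 4 weeks was 1.23 (SE 0.21, edgeR adjusted p = 0.00144) for Mfap4 and 1.51 (SE 0.23, edgeR adjusted p = 0.00053) for Mfap5. In hearts Mfap4 was at 43.4, 63.1, and 78.2 CPM at 4 weeks and 14.2, 7.91, and 13.8 CPM at 14 weeks, and Mfap5 at 42.4, 59.3, and 66.8 CPM and then 18.4, 19.7, and 18.5 CPM. These falls were -2.36 (SE 0.27, edgeR adjusted p = 0.0002) for Mfap4 and -1.57 (SE 0.24, edgeR adjusted p = 0.00221) for Mfap5 on the log2 scale. The 1.5-year hearts held 24.3, 20.4, and 19.3 CPM of Mfap4 and 35.6, 30.3, and 50.6 CPM of Mfap5, above all 14-week hearts. The log2 fold changes between these ages were 0.83 (SE 0.26, edgeR adjusted p = 0.045) for Mfap4 and 1.04 (SE 0.23, edgeR adjusted p = 0.00846) for Mfap5. The other members called in this comparison were Efemp2 and Fbln1, the latter at 0.56 (SE 0.16, edgeR adjusted p = 0.0297). Across 12972 genes, Spearman's rho between transcript length and this fold change was -0.56, and Mfap4 has the shortest transcript of the 10, at 1770 bases. With offsets for length and GC content Mfap4 stood at 0.57 (edgeR adjusted p = 0.208). Without any 1 of the 6 hearts, Mfap4 was not called (edgeR adjusted p between 0.0643 and 0.184), and Fbln1 was not called without 14-week replicates 1 and 2 (0.0728 and 0.148) or 1.5-year replicates 2 and 3 (0.0888 and 0.107). Relative to P1, Mfap4 in 1.5-year hearts was lower by a log2 fold change of -0.86 (SE 0.26, edgeR adjusted p = 0.0177), which without P1 replicates 1 and 3 or 1.5-year replicates 2 and 3 had an edgeR adjusted p of 0.0504, 0.124, 0.0537, and 0.0554. Mfap5 rose in hearts between P1 and 4 weeks by 1.11 (SE 0.23, edgeR adjusted p = 0.00281), from between 23.8 and 29.2 CPM. With library size in place of TMM, which moved the median of all genes by -0.51 in this comparison, it stood at 0.61 (edgeR adjusted p = 0.062).

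**Figure D3:**
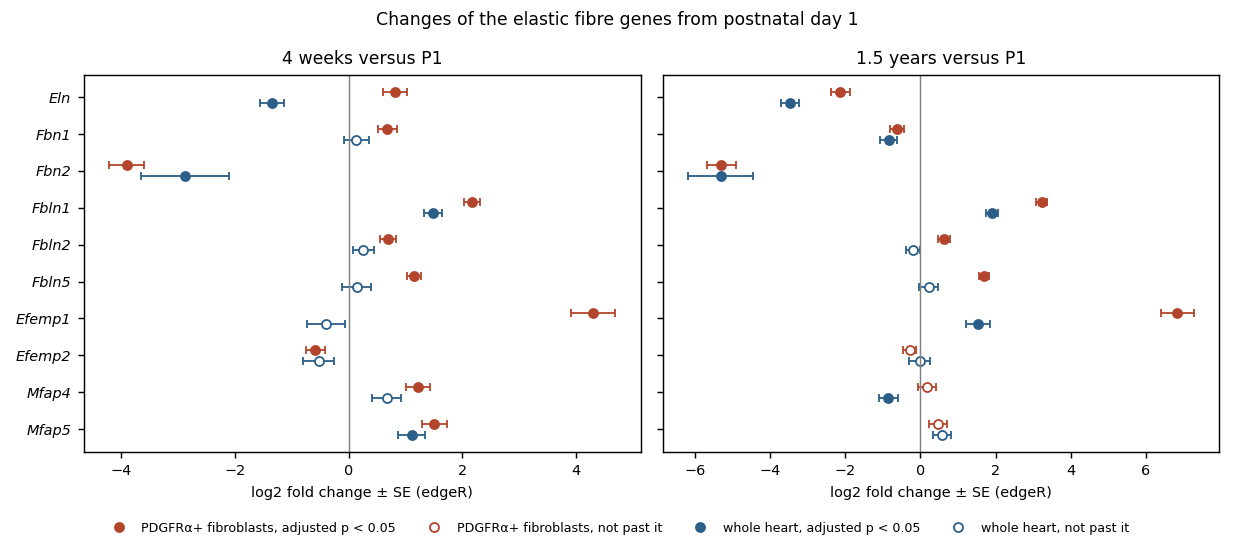
Log2 fold change with its standard error (edgeR) of each elastic fibre gene at 4 weeks and at 1.5 years relative to P1, with a filled point at an adjusted p under 0.05 and an open one otherwise. At 4 weeks Eln lay above 0 in fibroblasts (0.82) and below 0 in hearts (-1.35), and Efemp1 reached 6.84 in fibroblasts at 1.5 years.

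The 10 genes together took 1.04% ± 0.0628 (SD, n = 3) of all counts in P1 fibroblasts and 1.65% ± 0.0912 (SD, n = 3) at 4 weeks. The share was 1.07% ± 0.0737 (SD, n = 2) at 14 weeks, 1.42% ± 0.175 (SD, n = 2) at 1 year, and 0.986% ± 0.184 (SD, n = 2) at 1.5 years. In hearts it was 0.133% ± 0.0190 (SD, n = 3) at P1, 0.0763% ± 0.00748 (SD, n = 3) at 4 weeks, 0.0332% ± 0.00761 (SD, n = 3) at 14 weeks, 0.0344% ± 0.00204 (SD, n = 3) at 1 year, and 0.0477% ± 0.00389 (SD, n = 3) at 1.5 years. The share at 4 weeks lay above that at P1 in all fibroblast samples and below it in all hearts (exact permutation test, 2-sided p = 0.1 in each tissue, the smallest possible). Without Eln, the member with the most counts in hearts, the heart difference was -0.00787 percentage points (exact permutation test, 2-sided p = 0.4) in place of -0.0571. These shares are of raw counts, without TMM scaling. The TMM factors of hearts were between 1.40 and 1.47 at P1 and 0.939 and 1.05 at 4 weeks. After scaling, the summed CPM of the 10 genes in hearts was between 849 and 1052 at P1 and 737 and 801 at 4 weeks. Scaled levels of Fbln1 and Mfap5 were called higher there and those of Eln and Fbn2 lower. Without Eln, the summed CPM was higher in every 4-week heart than in every P1 heart. The direction of the raw difference without Eln therefore did not hold after scaling.

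The make-up of this set also moved with age. Per kilobase, Eln was 33.1% of the summed level of the 10 genes in P1 fibroblasts and 30.7% at 4 weeks, whereas Fbln1 was 5.38% and 12.7%. At 1.5 years Eln was 5.54% and Fbln1 37.9% of the sum. Hearts ended close to these proportions, at 8.46% for Eln and 32.6% for Fbln1, but began with Eln at 54.9% and Fbln1 at 5.13%. In both tissues Eln had the largest mean share at P1 and Fbln1 at 1.5 years.

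**Figure D4:**
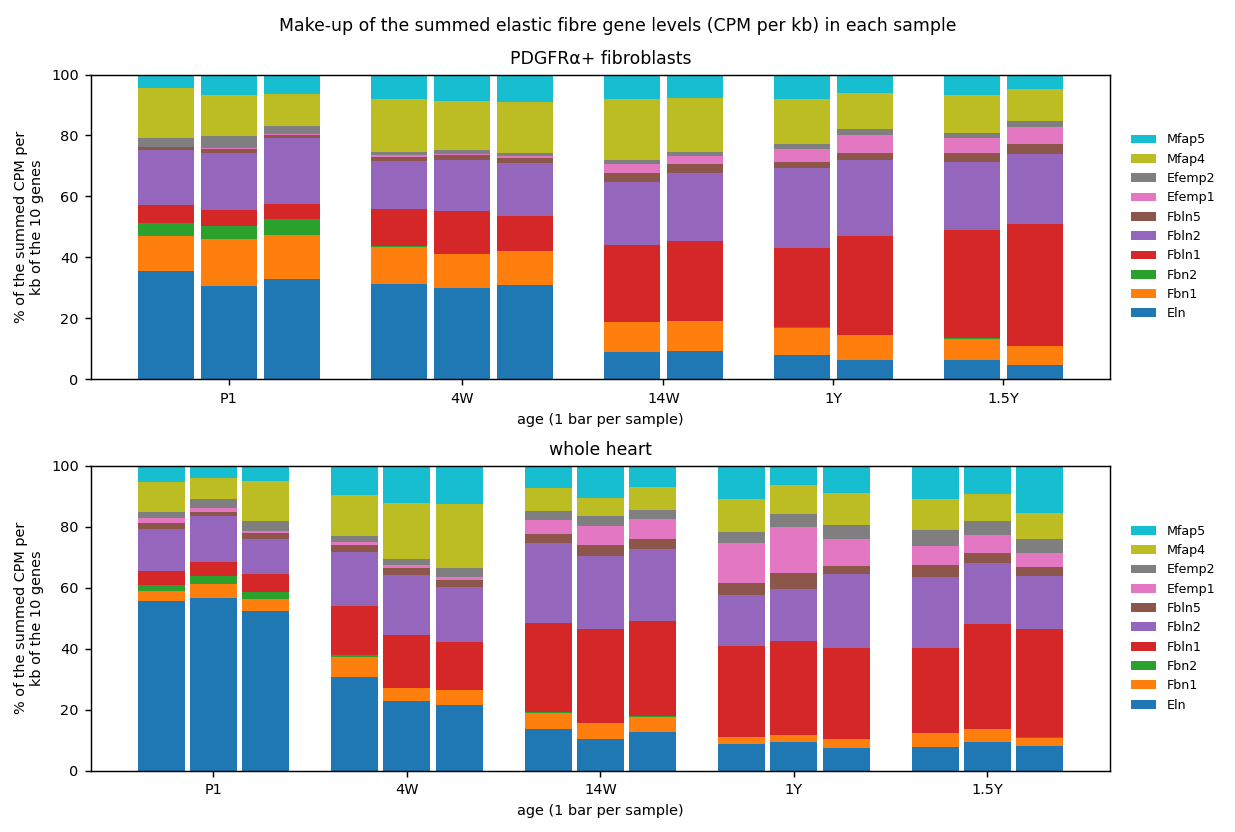
Percent of the summed level (CPM per kilobase of transcript) of the 10 elastic fibre genes taken by each, with 1 stacked bar per sample, in PDGFRα+ fibroblasts and whole heart. Eln took between 52.5% and 56.5% in P1 hearts and between 4.65% and 6.43% in fibroblasts of 1.5 years, where Fbln1 took between 35.7% and 40.1%.

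Sorted fibroblasts and hearts were compared in 1 fit of all 27 samples, scaled together and treated as independent. Per the paper, the hearts that gave the fibroblasts were sequenced too, and any such pairing was left out of this fit. At P1, 9 members were higher in fibroblasts and Efemp1 was lower, where 32.3% of 20650 genes were called (13.6% higher and 18.7% lower). All 10 were higher in fibroblasts at 4 weeks, where 36.1% of genes were called (17.5% higher and 18.6% lower), and at 14 weeks, with 34.8% called (17.1% higher and 17.7% lower). All 10 were also higher at 1 year, with 32.4% called (16.7% higher and 15.7% lower), and at 1.5 years, with 38.9% called (21.0% higher and 17.9% lower). The median log2 difference of the members went from 2.95 at P1 to 4.61 at 1 year, with the median of all genes between -0.17 and 0.04. Fbn1 had the largest difference at 4 of the 5 ages, from 4.51 (SE 0.25, edgeR adjusted p = 1.3e-12) at P1 to 6.56 (SE 0.28, edgeR adjusted p = 2.4e-14) at 1 year, whereas at 14 weeks Mfap4 led with 5.69 (SE 0.32, edgeR adjusted p = 1e-12). Of the 9 members that were higher at P1, Eln had the smallest difference, at 2.03 (SE 0.24, edgeR adjusted p = 4.8e-07). Efemp1 at P1 was at -1.40 (SE 0.36, edgeR adjusted p = 0.00381), although its lowest heart sample lay below its highest fibroblast sample, and in a fit of the P1 samples alone it was at -1.34 (edgeR adjusted p = 0.193). Cells and heart pieces were handled differently before RNA extraction, so that tissue and preparation cannot be told apart in these values.

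An interaction term in the same fit tested if fibroblasts and hearts changed unequally with age. Between P1 and 4 weeks, the change was shifted upward in fibroblasts relative to hearts for 3 members, with 7.14% of all genes called (3.18% higher and 3.96% lower). These were Efemp1, by 4.70 on the log2 scale (SE 0.52, edgeR adjusted p = 3.3e-06), Eln, by 2.16 (SE 0.34, edgeR adjusted p = 0.0002), and Fbln5, by 1.00 (SE 0.30, edgeR adjusted p = 0.0409). Between P1 and 1.5 years (13.6% called, 7.88% higher and 5.77% lower) the 4 members were Efemp1 at 5.28 (SE 0.54, edgeR adjusted p = 9.2e-07), Fbln5 at 1.45 (SE 0.31, edgeR adjusted p = 0.00294), Fbln1 at 1.29 (SE 0.24, edgeR adjusted p = 0.00079), and Eln at 1.32 (SE 0.35, edgeR adjusted p = 0.0144). The median of all genes in these 2 tests was 0.17 and 0.32. Xist was also called higher in both tests, and higher in fibroblasts than in hearts at 4 weeks and 1.5 years. Ddx3y was called in none of these. The part of sex in the differences between the tissues was not tested. Across 13374 genes, Spearman's rho between transcript length and the value of the test was 0.12 at 4 weeks and 0.33 at 1.5 years. For Eln the value of 1.5 years is a smaller fall in fibroblasts than in hearts, and it was 0.82 (edgeR adjusted p = 0.175) without fibroblast 1.5-year replicate 4 and had an edgeR adjusted p of 0.0552 without heart 1.5-year replicate 3. The Fbln5 call of 4 weeks was lost without any 1 of 11 of the 12 libraries (all but fibroblast 4-week replicate 3), with an edgeR adjusted p between 0.0524 and 0.136.

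Relative to 100 CPM of the summed fibroblast markers of the same sample, Eln in hearts was at 37.7 CPM ± 5.71 (SD, n = 3) at P1, 15.6 CPM ± 3.51 (SD, n = 3) at 4 weeks, and 3.85 CPM ± 0.605 (SD, n = 3) at 1.5 years. In sorted fibroblasts it was at 6.87 CPM ± 1.84 (SD, n = 3), 14.2 CPM ± 1.05 (SD, n = 3), and 2.55 CPM ± 0.655 (SD, n = 2) at the same ages. On this scale the hearts lay above all sorted samples at P1 (31.9 to 43.3 against 5.4 to 8.94 CPM), and at 4 weeks the ranges overlapped (12.2 to 19.2 against 13.1 to 15.1 CPM). Fbln1 on this scale was at 3.31 CPM ± 0.349 (SD, n = 3) in P1 hearts and 14.1 CPM ± 2.87 (SD, n = 3) in 1.5-year hearts, and at 1.06 CPM ± 0.278 (SD, n = 3) and 16.5 CPM ± 0.865 (SD, n = 2) in fibroblasts. The marker list holds Col1a1 and Col1a2, whose mean in the sorted cells was lower at each later age than at P1.

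In fibroblasts, 15.5% of all genes were called between P1 and 4 weeks (9.28% higher and 6.20% lower). Among 20 further genes of microfibrils, elastic fibre assembly, and crosslinking, 9 rose and 5 fell in this comparison, with a median log2 fold change of 0.61. The 6 with the highest levels in fibroblasts were Ltbp4, Loxl1, Ltbp3, Emilin1, Adamtsl2, and Loxl2. Ltbp4, which binds latent TGF-β and helps fibulin-5 to lay down elastin, rose from 4536 CPM ± 354 (SD, n = 3) to 8127 CPM ± 466 (SD, n = 3), by 0.84 on the log2 scale (SE 0.12, edgeR adjusted p = 0.00028). Adamtsl2, a microfibril-binding glycoprotein, rose by 2.69 (SE 0.18, edgeR adjusted p = 6.5e-07), and Ltbp3 by 0.60 (SE 0.12, edgeR adjusted p = 0.00475). Emilin1, which sits between elastin and microfibrils, fell by 0.73 on the log2 scale (SE 0.19, edgeR adjusted p = 0.0202). The crosslinking enzymes Loxl1 and Loxl2 had log2 fold changes of 0.36 (SE 0.18, edgeR adjusted p = 0.199) and 0.02 (SE 0.19, edgeR adjusted p = 1.0). In hearts, 18.2% of all genes were called between these ages (12.1% higher and 6.10% lower). Of the 20, 5 rose and 2 fell there, with a median of 0.16. Ltbp4 and Adamtsl2 were among those that rose, by 1.45 (SE 0.17, edgeR adjusted p = 1.1e-05) and 2.17 (SE 0.32, edgeR adjusted p = 0.00013). Between P1 and 1.5 years, 10 of the 20 rose and 7 fell in fibroblasts (16.3% of all genes called, 9.86% higher and 6.46% lower). In hearts 2 rose and 6 fell (31.8% of all genes called, 15.6% higher and 16.3% lower). The list was assembled with earlier results of these data known.

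Of 11 enzymes able to degrade elastin, 9 were tested. In fibroblasts 2 of these rose and 1 fell between P1 and 4 weeks, where 15.5% of all genes were called. Ctsb, a lysosomal cysteine protease, rose by 0.79 on the log2 scale (SE 0.12, edgeR adjusted p = 0.00049), and Mmp14, a membrane-bound metalloprotease, fell by 0.82 (SE 0.21, edgeR adjusted p = 0.0204). Mmp2, the most abundant of the list, was at 2048 CPM ± 274 (SD, n = 3) at P1 and 2659 CPM ± 294 (SD, n = 3) at 4 weeks, with an edgeR adjusted p of 0.163. In hearts 3 rose and 1 fell over the same interval (18.2% of all genes called). Among those that rose, Ctss, a protease of macrophages, was at 2.11 (SE 0.27, edgeR adjusted p = 3.5e-05). The summed CPM of 5 leukocyte markers in hearts was between 37.2 and 40.1 at P1 and 229 and 285 at 4 weeks, and its part in the Ctss level was not tested. Of 9 genes for cell surface proteins that bind elastic fibre components, 1 rose and 2 fell in fibroblasts between P1 and 4 weeks (15.5% of all genes called). Itgb5, which pairs with αv to bind fibulins and fibrillin, rose by 0.80 (SE 0.12, edgeR adjusted p = 0.00063), and Itga8 fell by 2.35 on the log2 scale (SE 0.23, edgeR adjusted p = 1.9e-05). In hearts, Itgb5 had a log2 fold change of 0.54 (SE 0.21, edgeR adjusted p = 0.0876) and Itga8 one of -0.99 (SE 0.53, edgeR adjusted p = 0.223).

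The genes whose log2 CPM followed Eln most closely over the 12 fibroblast samples, among 8819 genes with a mean of at least 10 CPM, were Adamts19, Adamts12, Loxl2, Thy1, and Trp53inp2, with Pearson's r from 0.95 down to 0.92. Over the 15 hearts (8484 genes) they were Col1a1, Col5a2, Col1a2, Col5a1, and Cbx6, with r from 0.97 down to 0.96. For Efemp1 they were Apod, Cxcl14, Mmp3, Cst3, and Aox3 in fibroblasts, with r between 0.98 and 0.99, and C3, Fundc2, Mgst1, Taz, and Amy1 in hearts, with r between 0.91 and 0.94. Samples share ages and libraries, and these values describe likeness of pattern without a test. Elastin itself correlated with Fbn1 at r = 0.82 in both tissues, and with Fbn2 at 0.56 in fibroblasts and 0.94 in hearts.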

How the data were processed

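RNA-Seq was performed by the authors on 12 samples of PDGFRα+ cardiac fibroblasts and 15 of whole heart. Per the labels and the study's methods, STAR 2.5.3a placed the single-end reads on mm10, and the deposited values are raw counts per gene from STAR's GeneCounts mode, without normalization. The labels gave the tissue and age of all 27 samples, and no pair of a group held identical counts. The methods state 3 sets of fibroblasts per time point, whereas the labels give 2 at 14 weeks and later. Per the methods, the samples of an age came from different hearts, which the labels do not state. Atria and valves were removed before fibroblast isolation; whether this holds for heart tissue is not given in the sources used here.

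Each tissue was analyzed in R 4.3.3 with edgeR 4.0.16 (filterByExpr, TMM, quasi-likelihood F test) with all its samples in 1 fit, and both tissues in a joint fit of 20650 genes. A gene was called at a Benjamini-Hochberg adjusted p under 0.05 over all genes tested, and SE values are absolute log2 fold changes over the root of F. The members and lists were chosen with earlier results of these data known. All 10 members are described. From the lists of assembly, elastin-degrading, and cell surface genes, those named are among the 6 of a list with the highest mean CPM in fibroblasts. Values are not given for each of these 6. The 5 genes with the highest correlation with Eln and with Efemp1 are also named. Transcript lengths (the longest transcript of a gene), GC content, and overlaps came from GENCODE M21 on GRCm38, which held 95.4% of the symbols. Exons on the opposite strand overlap Eln, Fbn1, Fbn2, Efemp2, and Mfap4. CPM per kilobase used these lengths. Log2 CPM for correlations had 0.5 added. For shares and ratios, scipy 1.17.1 gave exact permutation tests. The fits were tested on simulated data, drawn with the spread that edgeR had estimated. In these data DESeq2 made more false calls than edgeR and also recovered more of the changed genes. Neither recovered all of them, so a gene that was not called may still have changed. The alternatives were DESeq2 1.42.0, median-of-ratios size factors, library size only, no filter, at least 10 counts in every sample, offsets for transcript length and GC content, only the groups compared, a replicate block, and each replicate left out.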

Additional observations from a re-analysis of the deposited data

Results flagged for a closer look

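In 7 results, the change of an elastic fibre gene from postnatal day 1 differed between fibroblasts and hearts by a test of the interaction. At 4 weeks the difference (fibroblasts minus hearts, log2) was 2.16 for Eln, 1.00 for Fbln5, and 4.70 for Efemp1. At 1.5 years it was 1.32 for Eln, 1.29 for Fbln1, 1.45 for Fbln5, and 5.28 for Efemp1. For Eln at 4 weeks, the level rose in the sorted cells and fell in the heart. For Efemp1, the fibroblast level at P1 was between 0.944 and 4.19 CPM and the heart level between 3.07 and 6.1 CPM.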

How the results depend on the processing

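Of the called results for single members, 1206 comparisons with an alternative stayed on the same side of the threshold in the same direction, 102 lost their call, and 0 turned. Only the 100 member results past the threshold were followed in this way, a restriction made after the values were seen; of the 70 others, 22 turned sign under at least 1 alternative, with log2 fold changes between -0.30 and 0.57, and 23 passed the threshold under at least 1. The offsets for length and GC content were centered within each sample after a first version, which also removed differences in scale between samples and gave other counts of calls, had been seen.

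Alternatives other than leaving out a library moved the number of members called by over 1.5 times only in the comparisons of 14 weeks with older ages. In fibroblasts at 1 year it went from 3 to 5 with DESeq2, to 0 with library size only, and to 0 with the offsets. In fibroblasts at 1.5 years it went from 0 to 2 with DESeq2, 1 with median-of-ratios size factors, 1 without a filter, 2 with at least 10 counts in every sample, and 1 with only both ages fitted. In hearts at 1 year it went from 0 to 2 with DESeq2, 2 with at least 10 counts, 1 with the offsets, 1 with the replicate block and offsets, and 2 with only both ages fitted, and at 1.5 years from 4 to 2 with only both ages fitted. The difference in the share of all raw counts between 4 weeks and P1, in percentage points, went from 0.602 to 0.431 in fibroblasts without Fbn1. It went from -0.0571 to -0.00787 in hearts without Eln.

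With 1 library left out, the number called in fibroblasts was between 8 and 10 at 4 weeks and 5 and 7 at 1.5 years against P1, between 1 and 3 at 14 against 4 weeks (1 without either 14-week replicate, 4 or 6; 2 without 4-week replicate 1 or 2), and against 14 weeks between 0 and 1 at 1 year, without any of its 4 libraries, and 0 and 0 at 1.5 years. In hearts it was between 3 and 5 at 4 weeks and 5 and 6 at 1.5 years against P1, 3 and 4 at 14 against 4 weeks, 0 and 1 at 1 year (1 without 1-year replicate 3), and 1 and 4 at 1.5 years against 14 weeks (1 without 14-week replicate 1 or 2, 2 without 1.5-year replicate 2 or 3). It was between 10 and 10 for fibroblasts against hearts at each age, and 2 and 4 at 4 weeks and 3 and 5 at 1.5 years for the difference between tissues. The share difference was between 0.565 and 0.653 in fibroblasts and between -0.0641 and -0.0463 in hearts. Of the 100 called member results, 80 kept their call without each library and 20 did not.

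Same-numbered samples of different ages had correlations of deviations between -0.12 and 0.27 over 7 pairs in fibroblasts and between -0.31 and 0.47 over 30 in hearts. For fibroblasts and hearts of the same number and age, the correlations were between -0.046 and 0.062 over 6 pairs. Deviations were taken from means of only 2 or 3 samples, so these values cannot decide if replicate numbers pair the samples. The labels do not state which fibroblasts came from which heart. With a replicate block, 10 members were called in fibroblasts at 4 weeks, and in hearts 4 at 4 weeks, 4 at 14 weeks, 0 at 1 year, 4 at 1.5 years against 14 weeks, and 6 against P1. For fibroblasts against hearts the block gave 10 at P1 and 10 at 4 weeks, and for the difference between tissues 2. Under the block, Fbn1 in hearts at 14 against 4 weeks (edgeR adjusted p = 0.0568) and the tissue difference for Fbln5 (0.076) lost their calls. The latter was also lost with DESeq2 (0.0517), median-of-ratios size factors (0.0968), and no filter (0.0784). Library size in place of TMM moved the median of all genes by up to 0.66 on the log2 scale (fibroblasts against hearts at 14 weeks) and by -0.60 in hearts of 1.5 years against P1.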
